A study of Mus musculus with 4 samples.

Results

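CT26 and MC38 are transplantable mouse lines used as models of colorectal adenocarcinoma, and this account sets the transcriptome of one against the other. The comparison took in all 4 libraries of the series, 2 of each line, and 13984 of the 51905 genes in the files, those with a mean of at least 10 deposited counts over the 4 libraries. CT26 comes from a BALB/c mouse and MC38 from a C57BL/6 mouse. Both lines were labelled as wild type, were infected with a lentivirus and selected with puromycin, and were collected 48 h after seeding. In each line 1 library came from cells carrying lenti-shGFP, a hairpin against green fluorescent protein, and 1 from cells carrying lenti-shmaurka-1, a hairpin against the kinase Aurora-A (gene Aurka). CT26 was grown in RPMI-1640 and MC38 in high-glucose DMEM with HEPES and non-essential amino acids, so line, strain of origin and medium cannot be told apart in these data. No library has a replicate of its own. The hairpin entered the fit as a block. With so few libraries the fit left no gene a dispersion of its own and pooled it over genes. The p-values therefore measure that pooled spread and not a gene's own, and very small ones are best read beside the values themselves. Without the block, where genes keep part of their own spread, the adjusted p of Asns went from 5.17e-81 to 3.07e-07 and that of Axl from 8.47e-194 to 6.17e-08 in edgeR.

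Levels are given as CPM, fragments scaled to library size after TMM normalization, first for the shGFP library of a line and then for its shmaurka-1 library. The libraries held 22207774 to 23752267 fragments. Differences are log2 values of CT26 over MC38 from edgeR, so a positive value is higher in CT26, and the error after ± is the standard error of the mean over the 2 hairpin pairs (shGFP against shGFP, shmaurka-1 against shmaurka-1). Where pairs of values stand against each other without a line named, CT26 comes first. A gene was called at a Benjamini-Hochberg adjusted p under 0.05 and a difference of at least 2-fold. Aurka itself stood at 269.6 and 55.7 CPM in CT26 and 88.5 and 16.3 CPM in MC38, lower with the hairpin against it in each line, and higher in CT26 under both hairpins (1.68 ± 0.08, edgeR adjusted p = 2.71e-52). That call was lost without the hairpin as block (1.63, edgeR adjusted p = 0.0788). Fits that left out 1 library, here and below, also had no block, so the hairpins were unbalanced between the lines in them. For Aurka they gave 0.09 without the shGFP and 2.36 without the shmaurka-1 library of CT26. Without the shGFP library of MC38 the difference was 3.32, and without its shmaurka-1 library 0.87. One merged locus of 210 gene rows, chr8:119910359-124345724 (GRCm38), was listed at 0 in both CT26 libraries while MC38 had 175546 and 181378 fragments there. It holds genes that all cells use, such as Rpl13 and Cox4i1. Its 74 tested genes are counted in the totals and shares over all genes and were left out of the lists, chromosomes, windows and largest changes. A gene near 0 in one line passed the filter on counts only through the other, so counts over the tested members of a list describe those members and no more. All gene lists were drawn up with earlier results of these data known, so the shares called in them are no independent evidence.

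Of the 13984 genes, 2412 (17.2%) were called higher in CT26 and 3454 (24.7%) higher in MC38. Without the locus listed at 0, 3380 of 13910 genes were higher in MC38. Nearly all calls held their direction under both hairpins (5863 of 5866), but they were made on these same libraries, so this is no independent support. The line difference in the shGFP libraries had a Pearson correlation of 0.96 with that in the shmaurka-1 libraries over 12558 genes, a description across genes that share these libraries. The median gap between the pairs was 0.20 on the log2 scale. How many genes stood on each side depends on the scaling. With total counts in place of TMM the median of all genes moved from -0.04 to -0.38, and 1683 genes were called higher in CT26 and 4375 higher in MC38, 27.8% against 41.1% of calls on the CT26 side. Differences are best read relative to that median.

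**Figure D1:**
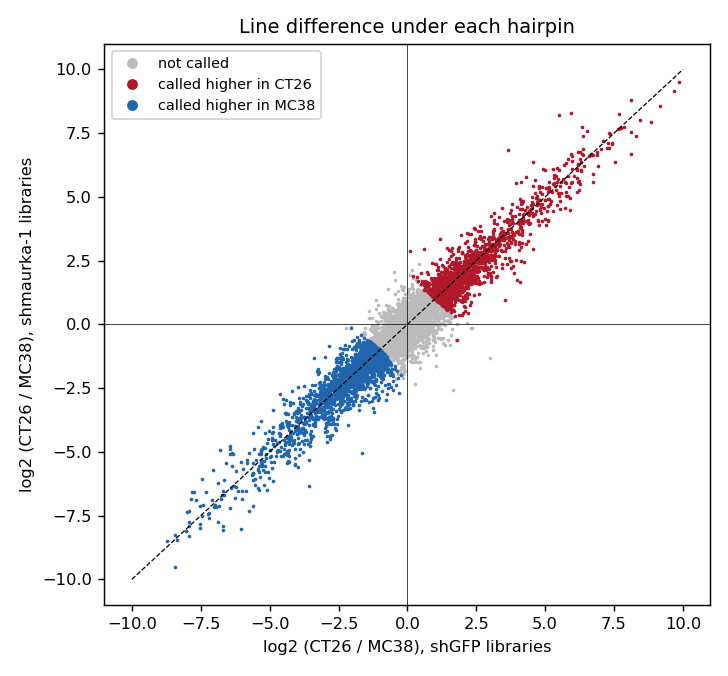
Each point is a tested gene with more than 3 fragments in every library, with its log2 ratio of CT26 to MC38 in the shGFP libraries (horizontal) and in the shmaurka-1 libraries (vertical). Called genes (red and blue) lie along the dashed line of equality, and 4 genes, none of them called, were at least 2-fold higher in one line under one hairpin and in the other line under the other.

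Epithelial cells of the colon are joined by E-cadherin (Cdh1) and tight junctions and are held in shape by keratin filaments built from a type I and a type II keratin, such as Krt18 with Krt8. Carcinoma cells can lose these genes and take up a mesenchymal state, with vimentin, N-cadherin (Cdh2) and fibrillar collagens, under repressors of the Zeb and Snail families that bind E-boxes with the core CACCTG in epithelial promoters. Hox genes, laid out in 4 clusters, keep a record of position along the body axis in adult cells, the highest numbers marking the posterior end.

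The labels name the cell type of CT26 as fibroblast and that of MC38 as epithelial cell. The adhesion genes Cdh1 and Epcam were at or near 0 in both. Cdh1 had 1 and 2 fragments in the CT26 libraries and 6 and 4 in the MC38 libraries. Epcam, the epithelial adhesion molecule, had 0 and 1 in CT26 and 0 and 1 in MC38. Of 26 epithelial genes listed, 14 had at most 10 fragments in every library, 8 could be tested and none exceeded 1 CPM in all 4 libraries. Single members were well above that in one line or the other. The lines are called by their names here.

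The promoters of 3 genes of this list are printed because they hold the E-box that the Zeb and Snail repressors read. The windows run from 250 bases before to 50 bases after the annotated start (RefSeq, GRCm38.p6), 5′ to 3′ on the gene's strand, with CACCTG or its reverse complement CAGGTG in capitals.
Epcam (chr17:87635729-87636028, plus strand): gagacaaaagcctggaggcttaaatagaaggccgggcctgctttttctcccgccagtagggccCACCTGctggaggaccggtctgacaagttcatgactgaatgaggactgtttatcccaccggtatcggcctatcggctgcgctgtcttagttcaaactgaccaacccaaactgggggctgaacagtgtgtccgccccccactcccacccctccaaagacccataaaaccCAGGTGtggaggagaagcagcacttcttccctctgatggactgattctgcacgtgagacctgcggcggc
Krt18 (chr15:102027966-102028265, plus strand): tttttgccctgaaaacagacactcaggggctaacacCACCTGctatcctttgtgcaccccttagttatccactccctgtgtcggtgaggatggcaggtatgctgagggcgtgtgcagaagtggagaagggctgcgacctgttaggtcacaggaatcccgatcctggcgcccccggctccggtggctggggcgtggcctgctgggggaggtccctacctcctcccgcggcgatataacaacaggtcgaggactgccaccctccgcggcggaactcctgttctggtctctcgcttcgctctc
Krt8 (chr15:102004293-102004592, minus strand): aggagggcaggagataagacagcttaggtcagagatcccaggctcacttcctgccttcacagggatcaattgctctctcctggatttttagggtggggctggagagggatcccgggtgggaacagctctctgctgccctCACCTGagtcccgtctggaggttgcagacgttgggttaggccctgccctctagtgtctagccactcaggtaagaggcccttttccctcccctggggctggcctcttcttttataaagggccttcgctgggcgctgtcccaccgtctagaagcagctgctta
The E-box begins at -187 and -19 in Epcam, at -214 in Krt18 and at -111 in Krt8, counted from the start. Of the 17 epithelial genes with a promoter in the table, 14 (82.4%) held the motif on either strand, beside 2 of 15 mesenchymal genes (13.3%) and 20.2% of all 32851 promoters of this length. A match is a description of letters in a window and not of a bound site.

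What remained of the epithelial programme differed between the lines. Krt18, one of the 3 with an E-box shown, stood at 71.4 and 75.7 CPM in CT26 and 0.462 and 0.551 CPM in MC38, a log2 difference of 7.12 ± 0.09 (edgeR adjusted p = 5.46e-243). Its filament partner Krt8 was low in both, at 0.989 and 0.663 CPM in CT26 and 0.847 and 0.709 CPM in MC38, and was not called (0.09 ± 0.16, edgeR adjusted p = 0.87). Krt20, a keratin of differentiated gut epithelium, had 434 and 205 fragments in CT26 and 2 and 0 in MC38, a ratio of 401 (95% exact interval 111 to 3319), an interval that covers counting error only. MC38 in turn held Ovol2, a repressor of Zeb1, at 7.43 and 8.78 CPM where both CT26 libraries were listed at 0, at least 55.1-fold higher. The splicing factor Esrp1 (46 and 27 fragments), the protease St14 (22 and 28) and the junction protein Tjp3 (56 and 24) were also listed at 0 in CT26. In all, 3 of the 8 tested genes (37.5%, against 17.2% of all genes) were called higher in CT26 and 4 (50%, against 24.7%) higher in MC38, and 5 of the 8 had at most 3 fragments in both libraries of one line.

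Mesenchymal genes, by contrast, were abundant in both lines: 18 of 27 exceeded 10 CPM in every library. Vim, the intermediate filament of mesenchymal cells, stood at 746 and 751 CPM in CT26 and 590.4 and 487 in MC38, and fibronectin (Fn1) at 4607 and 4239 in CT26 and 2533 and 3220 in MC38. Both were somewhat higher in CT26 without reaching 2-fold (0.48 ± 0.14 for Vim and 0.63 ± 0.23 for Fn1). Of 26 tested members 8 were called higher in CT26, or 30.8% against 17.2% of all genes, and 4 higher in MC38, or 15.4% against 24.7%. The median of the list was 0.55.

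The E-box repressors were among those higher in CT26. Zeb1 was at 67.8 and 73.8 CPM in CT26 and 13.8 and 13.1 in MC38 (2.39 ± 0.10, edgeR adjusted p = 5.29e-70), and Zeb2 at 284 and 258 against 121 and 129 (1.11 ± 0.12). Snai2 stood at 134 and 169.9 against 35.9 and 36.4 (2.06 ± 0.16) and Snai1 at 41.4 and 33.6 against 13.2 and 12.8 (1.52 ± 0.13). For each of the 4 the lower CT26 library lay above the higher MC38 library. Twist1 and Twist2, further drivers of the mesenchymal state, leaned the same way below the 2-fold limit (0.98 and 0.62).

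Prrx1, a homeobox factor of limb and connective tissue mesenchyme, was 10.9-fold higher in CT26, at 169 and 164 against 15 and 15.5 CPM. S100a4, a calcium-binding protein of motile cells, was at 312 and 282 against 11.3 and 18.7 CPM (4.33 ± 0.43). Cdh2 was at 115 and 97.6 against 18.7 and 12.4 CPM (2.79 ± 0.18). The collagens differed in direction. Col1a2 was 10.5-fold higher in CT26 (573 and 584 against 54.9 and 55 CPM), while its partner chain Col1a1 stayed within 2-fold (0.42 ± 0.13), and the collagen VI chains Col6a1 (-2.98 ± 0.41) and Col6a2 (-3.31 ± 0.57) were higher in MC38, as was the receptor Pdgfra (-1.29 ± 0.24, -0.98 without the shGFP library of MC38).

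**Figure D2:**
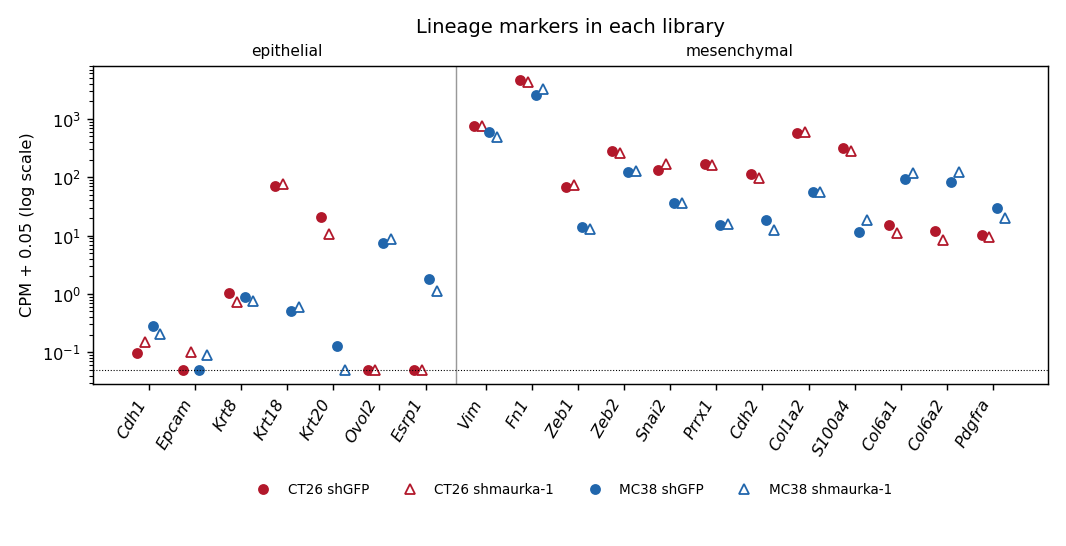
CPM plus 0.05 on a log axis for lineage markers in each library, CT26 in red and MC38 in blue, shGFP as circles and shmaurka-1 as open triangles; points on the dotted line are at 0. Cdh1 and Epcam stay at or near the bottom in all 4 libraries, and Krt18 and Krt20 are high only in CT26. Ovol2 and, at a low level, Esrp1 stand above 0 only in MC38. Most mesenchymal genes are high in both lines, with Zeb1, Prrx1, Col1a2 and S100a4 about 5 to 20 times higher in CT26.

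Of 22 genes of the intestinal epithelium, 10 had no fragment in any library, 3 could be tested and 1 exceeded 10 CPM in every library. Of the 3 tested, 1 (33.3%, against 17.2% of all genes) was called higher in CT26 and 1 (33.3%, against 24.7%) in MC38. The list summed to 79.9 and 68.5 CPM in CT26 and 47.7 and 44.2 in MC38, and its highest member reached 75.6 CPM. Cdx1, Lgr5 and Hnf4a never passed 13 fragments. Cdx2, the master factor of hindgut, had 14 and 3 fragments in CT26 and was listed at 0 in MC38. Villin (Vil1), of the brush border, had 38 and 29 fragments in MC38 and 0 in CT26.

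Markers of other cell types were mostly low. Ptprc, the pan-leukocyte surface gene, had 2 and 2 fragments in CT26 and 0 and 3 in MC38, and the 16 leukocyte genes summed to 7.75 to 9.56 CPM in the CT26 and 12 to 14.1 CPM in the MC38 libraries. The endothelial list (8 genes) summed to 4.13 to 5.04 CPM in CT26 and 11.5 to 13.4 in MC38, with Erg, an endothelial transcription factor, at 6 and 2 fragments in CT26 and 71 and 116 in MC38. Of its 5 tested genes 1 (20%, against 17.2% of all genes) was called higher in CT26 and 3 (60%, against 24.7%) higher in MC38. In such bulk libraries, fewer cells of a type and less RNA per cell cannot be told apart. Of 9 smooth muscle genes 6 were tested and 1 (16.7%, against 17.2% of all genes) was called higher in CT26, Smtn (219.8 and 263 against 64.4 and 70.9 CPM, 1.83 ± 0.06). Of 4 tested neural genes 1, L1cam, was called higher in CT26 (25%, against 17.2% of all genes) and 1, Ncam1, higher in MC38 (25%, against 24.7%). L1cam, an adhesion molecule, had 12 and 20 fragments in CT26 and 5 and 1 in MC38, and its call was lost with DESeq2 (adjusted p = 0.127). Without the shmaurka-1 library of MC38 its difference was 2.15. Ncam1, the neural cell adhesion molecule, was at 0.754 and 0.561 CPM in CT26 and 140.1 and 143 in MC38 (-7.73 ± 0.23), while Nes, an intermediate filament of progenitor cells, was high in both (239 and 209 CPM in CT26 and 178 and 144 in MC38).

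Of the 39 Hox genes, 27 could be tested, and 21 of them (77.8%, against 24.7% of all genes) were called higher in MC38 and 3 (11.1%, against 17.2%) in CT26. The list median was -3.20, or -3.11 with genes at 0 to 3 fragments set to their bound. Of 11 tested genes of groups 9 to 13, 10 were called higher in MC38 and 1 in CT26, and of 16 of groups 1 to 8, 11 were higher in MC38 and 2 in CT26. Of these, 7 of the 11 and 1 of the 16 had at most 3 fragments in both CT26 libraries and so were tested only through MC38.

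Hoxd13, which patterns the hindgut end and digits, had 955 and 1012 fragments in the MC38 libraries and 0 and 1 in CT26, a ratio of 1567 (95% exact interval 281 to 61923). Hoxb13, a marker of distal colon and prostate, was at 8.58 and 9.1 CPM in MC38 and listed at 0 in CT26, at least 60.1-fold higher. Hoxa13 had 75 and 56 fragments in MC38 and 1 and 1 in CT26. For these 3 genes of group 13 every MC38 library stood far above both CT26 libraries.

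Groups 9 to 11 held more such genes. Hoxd9 had 740 and 527 fragments in MC38 and 2 and 1 in CT26, Hoxa11 had 246 and 328 in MC38 and 2 and 2 in CT26, and Hoxc10 had 350 and 382 in MC38 and 4 and 3 in CT26. The 3 genes called higher in CT26 were Hoxa6, Hoxb9 and Hoxc6. Hoxc6 was at 23.7 and 20.1 CPM in CT26 against 8.28 and 5.95 in MC38 (1.63 ± 0.12), and Hoxb9 at 12 and 14.9 against 4.23 and 4.13 (1.68 ± 0.18). Hoxa9 and Hoxa10 were expressed in both lines and higher in MC38 (-1.09 ± 0.05 and -1.37 ± 0.15). The call of Hoxa9 fell below 2-fold without the shmaurka-1 library of CT26 (-0.89) or the shGFP library of MC38 (-0.91), and that of Hoxa6 was lost without either CT26 library or the shmaurka-1 library of MC38 (0.76 in the last case). Of the 27 tested genes 18 share a merged locus with other gene rows in the files, so their reads may have been divided among overlapping transcripts.

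**Figure D3:**
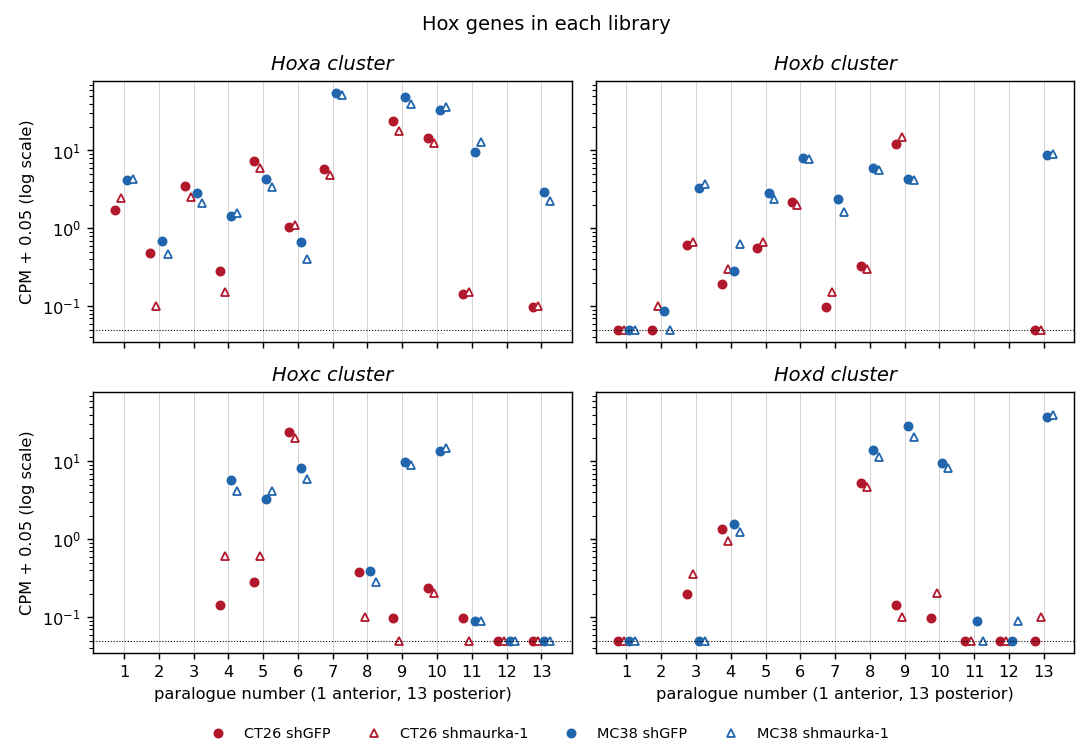
CPM plus 0.05 on a log axis for the Hox genes of each cluster, ordered by paralogue number, with CT26 in red and MC38 in blue. From number 9 upward the blue points of most tested genes lie near or above 1 CPM while the red points lie at the bottom, with Hoxa9, Hoxa10 and Hoxb9 as exceptions, and CT26 is called higher at Hoxa6, Hoxc6 and Hoxb9.

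Receptor tyrosine kinases carry growth signals from the membrane to Ras. Of 58 listed, 34 were tested, 7 (20.6%, against 17.2% of all genes) were called higher in CT26 and 18 (52.9%, against 24.7% of all genes) higher in MC38, with a median of -1.19. The 18 include 7 with at most 3 fragments in both CT26 libraries, tested only through MC38. Among those higher in CT26 were Axl, the Gas6 receptor, at 2316 and 2018 CPM against 270.2 and 314 in MC38 (2.89 ± 0.21, edgeR adjusted p = 8.47e-194), and Epha2, at 1173 and 1086 against 51.3 and 38.5 (4.66 ± 0.15). Met, the receptor of hepatocyte growth factor, was also higher in CT26 (144 and 134 against 49 and 40.5 CPM, 1.64 ± 0.09).

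Egfr, the receptor of epidermal growth factor, stood at 0.612 and 0.408 CPM in CT26 and 12 and 14.5 in MC38 (-4.68 ± 0.43, edgeR adjusted p = 1.53e-54), and Erbb3, which signals with Erbb2, at 1.32 and 0.969 against 36.6 and 22.8 (-4.68 ± 0.12). Erbb2 itself did not differ detectably (-0.07 ± 0.04, edgeR adjusted p = 0.609). Fgfr1, a receptor of fibroblast growth factors, was at 58.5 and 60.2 CPM in CT26 and 176 and 195 in MC38 (-1.64 ± 0.05). Ephb6, an ephrin receptor without kinase activity, had 257 and 258 fragments in MC38 and 0 and 1 in CT26.

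Downstream, Ras proteins switch on the Raf, Mek and Erk kinases, and active Erk induces its own brakes, the Dusp phosphatases and Sprouty proteins, beside transcription factors such as Fosl1 and Etv4. The list of 33 tested genes of this pathway divided by role (a division made after the values were seen). Of 16 GTPases, exchange factors, scaffolds and kinases 14 were not called, 1 (Rras, 1.16 ± 0.20, 0.89 without the shmaurka-1 library of MC38) was higher in CT26 and 1 (Ksr1) in MC38, where 17.2% and 24.7% of all genes were called in these directions. Nras and Hras were higher in CT26 by less than 2-fold (0.88 ± 0.12 and 0.68 ± 0.10), and the scaffold Ksr1 was higher in MC38 (-1.96 ± 0.08).

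Over the whole list 13 genes (39.4%, against 17.2% of all genes) were called higher in CT26 and 2 (6.06%, against 24.7%) in MC38. Of the 2 GTPase-activating proteins, Rasa1 was higher in CT26 (1.42 ± 0.03). Of 8 Dusp, Sprouty and Spred genes 5 were called higher in CT26 and 1 in MC38, and of 7 targets 6 were higher in CT26. Dusp5, a nuclear phosphatase of Erk, had the largest difference of the list. It was at 155 and 150 CPM in CT26 and 2 and 1.65 in MC38, 83.2-fold higher (6.38 ± 0.11). Its promoter is printed because it was the only one among 25 genes of the list with a promoter in the table to hold a CArG box, the binding motif of serum response factor, and it holds 2 of them side by side (capitals).
Dusp5 (chr19:53528895-53529194, plus strand): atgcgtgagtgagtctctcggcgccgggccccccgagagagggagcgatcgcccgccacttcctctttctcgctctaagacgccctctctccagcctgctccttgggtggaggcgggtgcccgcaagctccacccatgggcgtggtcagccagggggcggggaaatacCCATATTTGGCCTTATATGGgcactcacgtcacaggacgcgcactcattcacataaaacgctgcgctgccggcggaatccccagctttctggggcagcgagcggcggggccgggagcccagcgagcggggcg
The motif searched was CC, any 6 of A or T, then GG, and 1.63% of all promoters held it. The boxes begin at -82 and -72 from the start. Srf, the gene of the factor, was not called (-0.20 ± 0.01, edgeR adjusted p = 0.0971).

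Dusp6, the cytoplasmic Erk phosphatase, was at 262 and 210.1 CPM in CT26 and 18.8 and 13.1 in MC38 (3.90 ± 0.10, edgeR adjusted p = 3.44e-231). Spry4 stood at 582 and 618 against 13 and 9.37 (5.76 ± 0.28) and Spry2 at 58.1 and 54.4 against 8.28 and 7.68 (2.82 ± 0.01). Spry1 went the other way at low level (10 and 7 fragments in CT26 and 24 and 25 in MC38), a call that was lost without the shmaurka-1 library of CT26 (-0.96) or either MC38 library (-1.25 and -1.12). Among targets, the AP-1 subunit Fosl1 was at 854 and 982 against 34.3 and 49 CPM (4.48 ± 0.16), Phlda1 at 325 and 341 against 11.7 and 7.92 (5.09 ± 0.32), and Etv4 and Etv5 differed less (1.50 ± 0.03 and 1.13 ± 0.52). Etv5 fell below 2-fold without either shmaurka-1 library (0.95 and 0.75).

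In a list of 12 AP-1 and Egr genes, chosen after Fosl1 and Egr1 had been seen and so no independent evidence, 10 (83.3%, against 17.2% of all genes) were called higher in CT26 and 1 (8.33%, against 24.7%) higher in MC38. That gene, Jund (-1.12 ± 0.22), lost its call without the shGFP library of CT26 (-0.86) and with DESeq2 (adjusted p = 0.0731). Egr1, a zinc finger factor induced within minutes by Erk, was at 1842 and 1175 CPM in CT26 and 7.97 and 5.47 in MC38 (7.80 ± 0.05). Junb stood at 589 and 445 against 65.6 and 57.6 (3.06 ± 0.11). Ptgs2, the inducible cyclooxygenase, named here after its values were seen, was at 4254 and 4059 CPM against 149.9 and 180.4 (4.66 ± 0.17).

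**Figure D4:**
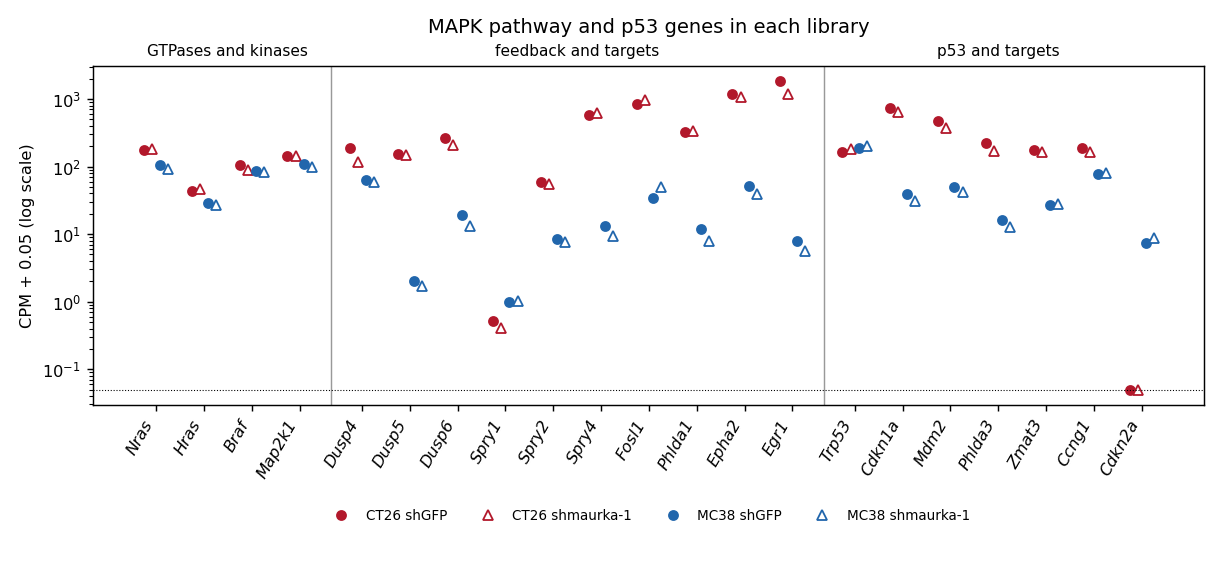
CPM plus 0.05 on a log axis for genes of the MAPK pathway and of p53 in each library, CT26 in red and MC38 in blue. The GTPases, kinases and Trp53 overlap or lie within about 2-fold, whereas Dusp5, Dusp6, Spry4, Fosl1, Phlda1, Epha2, Egr1, Cdkn1a, Mdm2 and Phlda3 are separated in every library, and Cdkn2a is at 0 in both CT26 libraries.

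Among 29 tested oncogenes 12 (41.4%, against 17.2% of all genes) were called higher in CT26 and 3 (10.3%, against 24.7%) in MC38, with a median of 0.78. Ccnd1, the G1 cyclin downstream of Ras and Wnt, was at 925 and 782 CPM in CT26 and 92.6 and 80.4 in MC38 (3.30 ± 0.02, edgeR adjusted p = 5.62e-226). Myc was at 635 and 624 against 168 and 235 (1.66 ± 0.25).

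The following 4 members of the list are named for the size of their difference. Hmga2, a chromatin protein of fetal tissue, was at 478 and 667 CPM in CT26 and 20.8 and 25.6 in MC38 (4.61 ± 0.09). Igf2bp1, an RNA-binding protein that protects Myc transcripts, stood at 133 and 127 against 1.12 and 1.18 (6.81 ± 0.07). Its paralogue Igf2bp3 had the opposite pattern, at 1.51 and 2.96 against 17.9 and 19.9 (-3.10 ± 0.41). Lin28b, the blocker of let-7 maturation, was at 9.35 and 5.59 CPM in MC38 and listed at 0 in CT26, at least 50.8-fold higher. Of these 4 genes, 2 were called higher in each line.

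No difference in the transcript of p53 was detected between the lines, and its protein was not measured here. Trp53 stood at 163 and 183 CPM in CT26 and 188 and 200 in MC38 (-0.17 ± 0.04, edgeR adjusted p = 0.111). Cdkn1a, the cell cycle inhibitor p21, was at 731 and 637 CPM in CT26 and 39.1 and 31.4 in MC38 (4.28 ± 0.06), and Mdm2, the ligase that degrades p53, at 466 and 372 against 49.9 and 41.7 (3.19 ± 0.03). In a list of 25 tested p53 targets, added after Cdkn1a and Mdm2 had been seen, 14 (56.0%, against 17.2%) were called higher in CT26 and 3 (12%, against 24.7%) higher in MC38, with a median of 1.23.

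Those higher in CT26 included the Akt inhibitor Phlda3 (222 and 172 against 16.3 and 12.8 CPM, 3.76 ± 0.01), the RNA-binding protein Zmat3 (176 and 163 against 27.2 and 28.1 CPM, 2.62 ± 0.08) and the apoptosis genes Bbc3 (2.46 ± 0.24) and Bax (1.23 ± 0.22). Plk2, a kinase of the stress response, was at 2048 and 2062 CPM in CT26 and 43 and 57.7 in MC38 (5.36 ± 0.21). Sesn1, a stress-induced inhibitor of mTORC1, was higher in MC38 instead, at 3.44 and 4.08 against 40.7 and 39.1 CPM (-3.41 ± 0.15).

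Cdkn2a encodes both p16 and p19Arf, the latter an inhibitor of Mdm2, and lies beside Cdkn2b (p15) on chromosome 4. Cdkn2a (chr4:89274470-89294653, GRCm38) was listed at 0 in both CT26 libraries and had 189 and 221 fragments in MC38, at least 54.4-fold higher there. Cdkn2b had 0 and 1 fragments in CT26 and 188 and 164 in MC38, a ratio of 280.4 (95% exact interval 50 to 11107). Elavl2, a neural RNA-binding protein gene further along the chromosome, had 2 and 1 fragments in CT26 and 926 and 778 in MC38. Of 8 tested genes of the neighbourhood 4 (50%, against 24.7% of all genes) were called higher in MC38 and 1 (12.5%, against 17.2%) in CT26, and 3 of the 8 had at most 3 fragments in both CT26 libraries. Mtap, which borders Cdkn2a on the other side, was well expressed in CT26 (105 and 122 CPM against 229 and 250.4, -1.08 ± 0.05, -0.97 without the shGFP library of CT26), and Klhl9 likewise (-0.80 ± 0.12). A lost gene and a silent one cannot be told apart from transcripts.

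Of 29 tested tumour suppressors 21 were not called, 2 (6.90%, against 17.2% of all genes) were higher in CT26 and 6 (20.7%, against 24.7%), the Cdkn2 genes included, in MC38. Apc stood at 152 and 140.2 CPM in CT26 and 150.1 and 140 in MC38 (0.01 ± 0.01, edgeR adjusted p = 0.947), and Smad4 at 70.9 and 78.6 against 85 and 78.5 (-0.13 ± 0.13, edgeR adjusted p = 0.268). Brca1 (-1.88 ± 0.17), Brca2 (-2.39 ± 0.06) and Nf2 (-1.41 ± 0.02) were higher in MC38.

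Mismatch repair corrects copying errors behind the replication fork. Of 14 tested genes of mismatch repair and replication, Mgmt included, 7 (50%, against 24.7%) were called higher in MC38, none was called higher in CT26, and the median was -1.0. At an adjusted p under 0.05 without the 2-fold limit, Pcna was higher in CT26 (0.39 ± 0.02, edgeR adjusted p = 5.23e-05). Msh6, which recognises single mismatches, was at 65 and 60.7 against 230.3 and 202 CPM (-1.78 ± 0.05). The nuclease Exo1 stood at 13.1 and 14.1 against 81.5 and 91.2 CPM (-2.66 ± 0.03, edgeR adjusted p = 7.49e-91).

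Mgmt, which reverses alkylation of guanine, had 81 and 69 fragments in MC38 and was listed at 0 in CT26, at least 19.9-fold higher.

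Strain of origin bears most directly on genes known to vary among inbred mice. The reference genome is that of C57BL/6J, a substrain of the C57BL/6 of MC38, so a lower level in CT26 and poorer alignment of BALB/c reads cannot be told apart. Of 13 tested strain-variable genes 7 (53.8%, against 17.2% of all genes) were called higher in CT26 and 2 (15.4%, against 24.7%) in MC38, and 4 had at most 3 fragments in both libraries of one line. Ifi202b, an interferon-inducible gene that C57BL/6 mice hardly express, had 3658 and 3610 fragments in CT26 and 1 and 1 in MC38, a ratio of 4562 (95% exact interval 1262 to 37675). Gbp2b, a guanylate-binding protein, had 644 and 874 fragments in CT26 and 1 and 0 in MC38. Mx2, an antiviral GTPase, stood at 117 and 171 CPM against 6.43 and 9.41 (4.19 ± 0.0042).

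Hc, the complement component C5, was at 7.81 and 6.46 CPM in MC38 and listed at 0 in CT26. Nnt, the mitochondrial transhydrogenase, and Wdfy1 did not reach 2-fold (-0.28 ± 0.0012 and 0.20 ± 0.02). The H2 genes, the mouse major histocompatibility complex, are both strain-variable and near-identical in sequence, so their reads may be divided among copies and each value is uncertain. Of 25 tested genes of H2 and antigen presentation 8 (32.0%, against 17.2% of all genes) were called higher in CT26 and 11 (44.0%, against 24.7%) higher in MC38.

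Classical class I genes were higher in MC38. H2-K1 stood at 204 and 181 CPM in CT26 and 1697 and 1370 in MC38 (-2.99 ± 0.07, edgeR adjusted p = 4.36e-201), and H2-D1 at 738 and 685 against 1986 and 1658 (-1.35 ± 0.08). B2m, their light chain, was not called (1196 and 1008 against 1329 and 1176 CPM, -0.19 ± 0.03). The immunoproteasome subunits Psmb8 (6.31 and 6.27 against 64.8 and 68 CPM, -3.39 ± 0.04) and Psmb9 (0.471 and 0.561 against 26.6 and 22.7, -5.52 ± 0.24) were much higher in MC38.

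Of the 11 tested non-classical class I genes (Q, T and M), a division made after the values were seen, 8 (72.7%, against 17.2% of all genes) were called higher in CT26 and 1 (9.09%, against 24.7%), H2-T22, higher in MC38 (-1.61 ± 0.17). H2-T23, the gene of Qa-1, was at 10.6 and 13.8 CPM in CT26 and 0.423 and 0.276 in MC38 (5.09 ± 0.50), H2-M3 at 54.3 and 54.2 against 24.8 and 20.2 (1.28 ± 0.15), and H2-T24 had 75 and 54 fragments against 0 and 1. Some class II genes appeared in MC38, where Cd74, the invariant chain, was at 47.8 and 37.9 CPM against 4.9 and 5.61 in CT26 (-3.02 ± 0.26) and H2-DMb1 had 336 and 306 fragments against 3 and 0. Their activator Ciita had at most 3 fragments in any library.

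The Y chromosome genes Ddx3y, Eif2s3y, Kdm5d and Uty had at most 10 fragments in any library. The highest of all gene rows on that chromosome had 654 fragments summed over the 4 libraries. Xist, which coats the inactive X, had 24 and 13 in CT26 and 37 and 27 in MC38. Of 19 tested imprinted genes 12 were not called, 2 (10.5%, against 17.2% of all genes) were higher in CT26 and 5 (26.3%, against 24.7%) in MC38. Sgce had 6 and 0 fragments in CT26 and 340 and 338 in MC38, and its neighbour on chromosome 6, Peg10, had 4 and 10 in CT26 and 471 and 564 in MC38. Snrpn and Mkrn3 both lie in the Prader-Willi domain of chromosome 7. Snrpn had 0 and 2 fragments in CT26 and 130 and 87 in MC38, and Mkrn3 had 2 and 2 in CT26 and 103 and 116 in MC38. Plagl1 stood alone on chromosome 10 (-3.10 ± 0.06). The 2 higher in CT26 were Impact (125 and 109 against 41.9 and 44.9 CPM, 1.43 ± 0.15) and Kcnq1ot1, an antisense RNA of Kcnq1 whose reads cannot be told from those of its host (13.7 and 14.3 against 4.31 and 5.36 CPM, 1.54 ± 0.13). H19 and Igf2, neighbours on chromosome 7, did not pass the test (0.09 ± 0.17 and 0.04 ± 0.31, edgeR adjusted p = 0.505 and 0.829).

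Integrins bind matrix and other cells as pairs of an alpha and a beta subunit. Itgb7, the integrin subunit by which lymphocytes home to the gut, was at 725 and 641 CPM in CT26 and 1.58 and 2.64 in MC38 (8.35 ± 0.46). Its alpha partner Itga4 had 3 and 1 fragments in CT26 and 10 and 10 in MC38, and Itgae, the other, had 0 and 1 in CT26 and 8 and 1 in MC38. Itgal, a leukocyte subunit that pairs with Itgb2, had 4 and 2 in CT26 and 316 and 292 in MC38. Itgb2 itself was called higher in CT26 (2.45 without the block), a call lost with DESeq2 (adjusted p = 0.0885). The collagen receptor Itga1 had 4 and 3 fragments in CT26 and 513 and 395 in MC38. Itgb1, the common subunit, was higher in CT26 (1641 and 1389 against 723 and 672 CPM, 1.11 ± 0.07, 0.99 without the shGFP library of CT26). Of 17 tested integrins 8 (47.1%, against 17.2% of all genes) were called higher in CT26 and 5 (29.4%, against 24.7%) higher in MC38.

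Cytokines and chemokines shape which immune cells a tumour attracts. Of 26 tested secreted factors, 13 (50%, against 17.2%) were called higher in CT26 and 10 (38.5%, against 24.7%) in MC38. Csf1, the macrophage growth factor, was at 2231 and 2684 CPM in CT26 and 108 and 155 in MC38 (4.24 ± 0.13). Csf2 (GM-CSF) had 339 and 172 fragments in CT26 and 0 and 1 in MC38, a ratio of 642 (95% exact interval 115 to 25385). Lif, a cytokine of the interleukin-6 family, stood at 374 and 348 against 21.9 and 25.4 CPM (3.94 ± 0.16), and Cxcl1, which attracts neutrophils, at 153 and 191 against 3.31 and 8.27 (4.95 ± 0.50).

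Others were higher in MC38. Ccl2, which recruits monocytes, was at 18 and 43.3 CPM in MC38 and 0.424 and 0.816 in CT26 (-5.56 ± 0.16). Cx3cl1 (fractalkine) had 419 and 434 fragments in MC38 and 3 and 5 in CT26. Vegfc, a growth factor of lymphatic vessels, had 552 and 621 in MC38 and 0 and 1 in CT26, a ratio of 934 (95% exact interval 167 to 36940). Cxcl10, a T cell attractant, was also higher in MC38 (-1.30 ± 0.56), with its libraries at 107 and 293 CPM and those of CT26 at 64.4 and 81. For this gene the shmaurka-1 library of MC38 stood well above its shGFP library. Without that shmaurka-1 library, in a fit that also dropped the block, the difference was -0.56, below 2-fold. The costimulatory ligand Cd80, picked by size of change, had 2155 and 1686 fragments in CT26 and 0 and 3 in MC38, a ratio of 1607 (95% exact interval 549.5 to 7797).

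Wnt pathway targets did not move as 1 group, with 6 of 14 tested (42.9%, against 17.2% of all genes) called higher in CT26 and 5 (35.7%, against 24.7%) in MC38. Of the negative feedback genes that respond to beta-catenin, Znrf3 was not called (-0.07 ± 0.03) and 3 were called higher in MC38. Rnf43 had 1 and 1 fragments in CT26 and 129 and 125 in MC38, Notum had 1 and 0 in CT26 and 21 and 28 in MC38, and Axin2 had 12 and 17 in CT26 and 55 and 49 in MC38. The call of Axin2 was lost with DESeq2 (adjusted p = 0.164) and its difference on FPKM was -0.09 to -0.24. The factor Tcf7 had 4 and 1 fragments in CT26 and 557 and 562 in MC38, while its relative Lef1 was higher in CT26 (38.1 and 34.1 against 10.7 and 9.18 CPM, 1.86 ± 0.03). Sox9 (2.02 ± 0.38) and Cd44 (2.14 ± 0.09) were higher in CT26 too.

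Of 19 tested serine and one-carbon genes 13 were not called and 3 (15.8%) were higher in each line, against 17.2% of all genes for CT26 and 24.7% for MC38. Asns, asparagine synthetase, was at 1377 and 1501 CPM in CT26 and 422 and 416 in MC38 (1.78 ± 0.07, edgeR adjusted p = 5.17e-81). Ass1, argininosuccinate synthase, which cells need to make arginine, was at 13.6 and 19.2 CPM in MC38 and listed at 0 in CT26, at least 111-fold higher. The base media differed, and a supplement of non-essential amino acids was added to that of MC38 only. Which amino acids each complete medium held was not compared, and their part in these values was not tested.

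The genes with the largest changes, taken by a rule of size among called genes with a locus of their own, were 12 in each direction. In CT26 they included Fam83f (63.4 and 51 CPM, listed at 0 in MC38, at least 489-fold higher), Rarres1, a retinoic acid responder (282 and 200 fragments against 0), and Gata4, a zinc finger factor of heart and endoderm (1080 and 625 fragments against 2 and 0), with its cofactor Zfpm2 (Fog2, 3746 and 4132 fragments against 4 and 3). In MC38 they included Morc1, needed in the male germline (884 and 1043 fragments), the oocyte gene Nlrp4c (1106 and 785 fragments), Tex13b (1510 and 1322 fragments) and the neural patterning factor En1 (411 and 403 fragments), all 4 listed at 0 in CT26. The X-linked RNA-binding protein Mbnl3 had 922 and 747 fragments in MC38 and 0 in CT26. The rule also gave Astl, Lhfpl4, Ces1g, Rpl39l and Ndst4 in CT26 and Rgl3, Lonrf3, Rorb, Zfp287, Slitrk5 and Elovl4 in MC38. Ndst4, an enzyme of heparan sulfate synthesis, had 3784 and 3970 fragments in CT26 and 5 and 7 in MC38, and Elovl4, which elongates very long chain fatty acids, had 0 and 1 in CT26 and 2028 and 1875 in MC38.

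Over the 20 nuclear chromosomes tested, the median log2 difference ran from -0.34 on chromosome 11 to 0.43 on chromosome 15, around -0.04 for all genes. Of 517 tested genes on chromosome 15, 27.3% were called higher in CT26 against 17.2% of all genes, and of 1103 on chromosome 11, 30.6% were called higher in MC38 against 24.7%. Chromosome 18 stood at 0.27, chromosome 8 at -0.25 and chromosome 4 at -0.24. Each of these 5 medians had the same sign under both hairpins and in genes with a locus of their own. With total counts, every one of them moved down together with the median of all genes, which took chromosomes 15 and 18 to 0.09 and -0.07.

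Windows of 50 tested genes were picked for their medians, so the calls counted in them follow from that choice and are given as a description, where 17.2% of all genes were called higher in CT26 and 24.7% in MC38. The lowest median was -1.85, at chr4:89235698-106655282, where 32 genes were called higher in MC38 and 2 in CT26. It takes in Cdkn2a, and Jak1 (-0.57 ± 0.07) and Usp24 (-0.44 ± 0.02) in it were lower in CT26 by less than 2-fold. The next, at chr2:172393793-178424428 (median -1.81, 30 genes higher in MC38 and 1 in CT26), holds a cluster of zinc finger genes that are near copies of one another, so that its values are uncertain, and Gnas (-0.50 ± 0.04) as the gene with the most fragments. The third lay at chr11:95700105-98053462 (-1.22, 27 and 4), where the 2 genes with the most fragments, Kpnb1 (0.08) and Rpl19 (-0.12), were not called.

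Windows on the CT26 side were milder. The highest median, 0.93, was at chr10:111506285-121626332, with 25 genes called higher in CT26 and 5 in MC38, and it takes in Mdm2 and Hmga2 together with the chaperonin subunit Cct2 (702 and 702 against 330 and 304 CPM, 1.15 ± 0.06), the tRNA exporter Xpot (1.29 ± 0.14) and the small GTPase Rap1b (379 and 356 against 98.8 and 90.9 CPM, 1.95 ± 0.01). A window at chr18:33796326-36922015 (0.92, 22 and 2) holds Egr1 and the mitochondrial chaperone Hspa9 (1.70 ± 0.02). One at chr15:83089505-89430868 (0.85, 22 and 6) holds the kinase Pim3 (2.93 ± 0.04) and Plxnb2 (1.02 ± 0.04, 0.98 without the shGFP library of CT26 and 0.94 without the shmaurka-1 library of MC38). Which windows stood out depended on their size. Among windows of 25 and of 100 genes, stretches overlapping the one on chromosome 4 were again among the 3 lowest, and the windows on chromosomes 10, 11 and 15 were among neither the 3 lowest nor the 3 highest. The chromosome 18 window was overlapped at 100 genes and not at 25, and that on chromosome 2 at 25 and not at 100. Gene dosage was not measured, and its part in these runs was not tested.

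**Figure D5:**
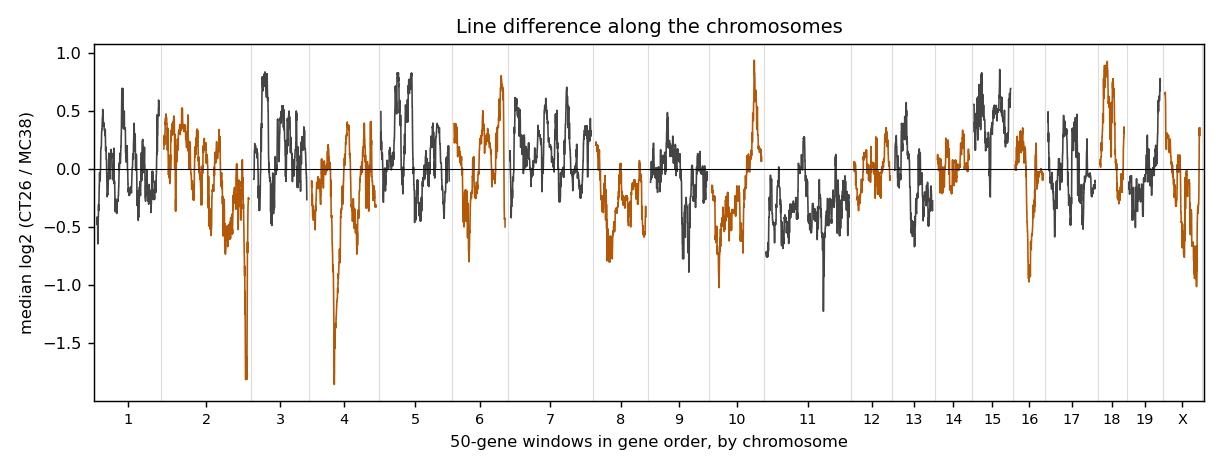
Median log2 ratio of CT26 to MC38 in running windows of 50 tested genes, in gene order along each chromosome with alternating colours. Narrow dips on chromosomes 2 and 4 reach about -1.8, chromosome 11 lies below 0 along most of its length, and chromosome 15 lies above it.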

How the data were processed

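Total RNA (strand-specific SureSelect libraries) was sequenced from 4 libraries, 2 per line, collected 48 h after seeding. Per the labels, the authors trimmed reads with Trimmomatic 0.36, aligned them with HISAT2 and quantified genes with Cufflinks 2.2.1 and Cuffdiff. The deposited tables hold estimated counts per gene, scaled between libraries by the authors, and FPKM. The labels name GRCm39, but 99.75% of 20022 genes that share no locus lay over the same gene in RefSeq GRCm38.p6, so GRCm38 is given here. Whether counting used strand is not given in the sources used here, and reads of overlapping or antisense genes cannot be told apart. Genes listed at 0 can be failed estimates.

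Deposited counts were rounded and tested in edgeR 4.0.16 (R 4.3.3; TMM, quasi-likelihood, hairpin as block, 1 residual degree of freedom, Benjamini-Hochberg adjustment over all genes with a mean of at least 10 counts). Fragments were recovered from the smallest step of each library (97.1 to 97.7% of values whole within 0.05) and serve for CPM, the floor of 3 fragments per library behind "at least" folds, and 95% exact conditional binomial intervals. Alternatives were other scalings, filters, DESeq2 1.42.0, limma 3.58.1, FPKM, no block and each library left out, the last without the block as well. The script was tested on simulated data. Gene lists and members were chosen with earlier results of these data known. Genes named are defining or most changed members of the lists, those added to them, and the 12 with the largest change in each direction among called genes with at least 200 counts, an own locus and a symbol that is no model name. No replicate of a condition exists, and the prior degrees of freedom were infinite, so p-values rest on dispersion pooled over genes of these libraries and not on a gene's own. Some genes are not reported here.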

Additional observations from a re-analysis of the deposited data

Results flagged for a closer look

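Results are given here whose direction under the shGFP hairpin was opposite to that under the shmaurka-1 hairpin. With 1 library per line and hairpin, the differences between the hairpins were not tested. The smooth muscle list had a median log2 difference of CT26 over MC38 of 0.13 in the shGFP libraries and -0.36 in the shmaurka-1 libraries. For the tumour suppressor list the medians were -0.21 and 0.00089, for the imprinted list 0.18 and -0.34, and for the integrin list -0.17 and 0.0059, in the same order. Among single genes, Tmem150a, a membrane protein gene, stood at 1.64 in the shGFP libraries and -2.57 in the shmaurka-1 libraries. The gene models Gm42742 (2.99 and -1.31), Gm12286 (1.03 and -1.21) and Gm13039 (1.03 and -1.63) had the same turn. None of these 4 genes was called.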

How the results depend on the processing

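With the hairpin as block, 2412 genes were called higher in CT26 and 3454 in MC38. Fits with each library left out in turn also dropped the block and left 1 library in a line, so their counts of calls are not given. Without the hairpin as replicate block, 2398 and 3439 were called, of which 2391 and 3431 were also called with it, and Aurka was among those lost. Whether the hairpin pairs the libraries rests on the labels alone. At an adjusted p under 0.05 with any fold, 5100 genes were higher in CT26 and 5544 in MC38. With FPKM averaging 1 or more, 2247 genes were higher in MC38, where fewer genes were tested. With total counts, the scaling that moved the split of calls, 1683 and 4375 were called. No named gene that was called reversed under any of the 17 alternatives.

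Uncalled genes near 0 changed sign. Total counts moved the median of all genes by -0.34, and for the other settings the cause was not tested. With total counts Apc was -0.33, H19 -0.25, Igf2 -0.30, Kpnb1 -0.26, Krt8 -0.25 and Wdfy1 -0.14. With a mean of at least 50 counts Apc was -0.021. With FPKM, Apc was -0.039 at a pseudocount of 1 or a mean of at least 1 and -0.041 at 0.1. Leaving out each library in turn, also without the block, Apc ran from -0.049 to 0.065, H19 from -0.076 to 0.25, Igf2 from -0.25 to 0.31, Kpnb1 from -0.012 to 0.18 and Krt8 from -0.22 to 0.36. Below 2-fold with total counts were 10 named genes called by TMM, which were Zeb2 (0.77), Xpot (0.95), Bax (0.89), H2-M3 (0.94), Cct2 (0.81), Etv5 (0.79), Hoxa6 (0.78), Itgb1 (0.78), Plxnb2 (0.68) and Rras (0.82). With DESeq2 the adjusted p missed 0.05 for Hoxa6 (0.436), Spry1 (0.427), Axin2 (0.164), L1cam (0.127), Itgb2 (0.0885) and Jund (0.0731). Genes with few fragments lost their call most often on FPKM plus 1.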
